A study of Mus musculus with 18 samples.

Results

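Jumonji C (JmjC) histone demethylases are enzymes that remove methyl groups from histone lysines, using iron, oxygen and 2-oxoglutarate. The genes described here are Kdm6a, Kdm6b, Kdm5a, Kdm5b, Kdm4a, Kdm4b, Kdm4c, Kdm3a, Kdm2a and Kdm2b. They were taken by symbol, by a rule that used no measured value, and are 10 of the 54446 gene identifiers counted. Earlier results of these data were known when they were chosen. All 10 were found and all 10 passed the filter on low counts in both lines.

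Per the labels, the libraries came from C57BL/6 mouse embryonic stem cells differentiated for 7 days into embryoid bodies. These are floating aggregates grown without the signals that keep the cells undifferentiated. There were 6 groups of 3 libraries. The Mettl14 line gave a control, the CKO and the CKO with 5 µM GSK343, and the Mettl3 line gave a control, the CKO and the CKO with 5 µM GSK-J4. The CKO cells without inhibitor received DMSO, per the labels, and no label names a vehicle for the controls. METTL3 and METTL14 form the enzyme that writes N6-methyladenosine on RNA. GSK343 inhibits EZH2, the methyltransferase that places H3K27me3, and GSK-J4 is taken up by cells and inhibits KDM6A and KDM6B, the enzymes that remove it. No control was given an inhibitor and each inhibitor was used in 1 line, so that inhibitor and line cannot be told apart. The labels do not say how the alleles were deleted, whether a line is 1 clone, or whether replicates were separate cultures, so p-values measure the spread between these libraries, which may be technical.

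Lysine 27 of histone H3 carries a mark of silent developmental genes, and KDM6A and KDM6B take it off during differentiation. KDM5 enzymes remove methyl groups from H3K4 at promoters, KDM4 enzymes from H3K9 and H3K36, KDM3A from H3K9, and KDM2A and KDM2B chiefly from H3K36. Enzymes of the class need oxygen, and KDM3A is also known as a gene switched on by the hypoxia-inducible factor HIF.

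Total counts ranged from 721853 to 32540164 per library, and the 2 shallowest were CKO replicate 3 (1303697) and GSK343 replicate 3 of the Mettl14 line. The GSK-J4 libraries had 3395675 to 8289423 counts, against 17544904 to 32540164 in the other 6 of their line. Mettl14 itself lay at 18.2 ± 0.880 CPM (counts per 1000000 of the TMM-normalised library total, SD, n = 3) in its control and 20.6 ± 3.75 CPM in the libraries labelled Mettl14 CKO. Mettl3 lay at 24.3 ± 8.49 CPM in its control and 16.9 ± 9.56 CPM in those labelled Mettl3 CKO. Neither targeted transcript passed the test (Mettl14, adjusted p = 1.00, Mettl3, adjusted p = 1, edgeR), so the gene counts do not check these labels, and a count over the whole gene cannot show the loss of an exon. CKO below means the libraries labelled so. Mesenchyme and fibroblast markers had the highest sum of the marker lists in every group, 12070 CPM of the raw library total or more. The highest sum of any other list was 195.4 CPM. Over the 18 libraries the median was 5380 CPM for Col1a1 and 0 for Pou5f1, Nanog, Afp and T. Whether the cells are embryoid bodies, as labelled, was not tested. The GSK-J4 libraries stood apart, with 0.112% to 0.244% of counts in mitochondrial mRNA against 1.29% to 3.24% elsewhere. The 12 mesenchyme and fibroblast markers were all seen in every library of the other 5 groups. Their summed level, in CPM of the raw library total, was 12070 to 19960 CPM with GSK-J4 and 32750 to 37220 CPM in the Mettl3 CKO libraries without it, and 10 of 12 were seen in all 3 GSK-J4 libraries. Neural markers were also lower with GSK-J4, with a sum of 67.4 to 80.0 CPM against 176 to 195 CPM in the same CKO, and 3 of 6 were seen in all 3 GSK-J4 libraries. Sums that were higher without overlap were those of pluripotent stem cells (79.0 to 162 CPM against 43.2 to 72.4, 3 of 9 markers at 0), endothelium (31.9 to 53.9 against 14.2 to 20.8, none of 5 at 0), epithelium (15.3 to 151 against 1.14 to 10.4, 2 of 6 at 0) and cardiomyocytes (11.8 to 67.4 against 1.69 to 5.84, 1 of 5 at 0). Of each of these 4 lists only 1 marker was seen in all 3 GSK-J4 libraries, so a rise of the list as a whole is not shown. Sums of endoderm (10.6 to 23.3 CPM against 2.45 to 16.5) and early mesoderm markers (0 to 13.25 against 0 to 1.66) overlapped. Those of blood markers also overlapped. These comparisons of sums are with the Mettl3 CKO alone. The mesenchyme and fibroblast sum with GSK-J4 overlapped those of the Mettl14 CKO (19570 to 24380 CPM) and of the GSK343 group (19170 to 20090 CPM). The neural sum with GSK-J4 overlapped those of the Mettl14 control (43.8 to 69.9 CPM), the Mettl14 CKO (21.2 to 76.8) and the GSK343 group (40.9 to 73.6).

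Coordinates are those of mm10 with GENCODE M21. Kdm6a is at chrX:18162575-18279936 on the plus strand and Kdm6b at chr11:69398508-69413675 on the minus strand. Kdm5a lies at chr6:120364124-120444574 (plus), Kdm5b at chr1:134560171-134635285 (plus), Kdm4a at chr4:118136957-118180043 (minus), Kdm4b at chr17:56326062-56402870 (plus) and Kdm4c at chr4:74242497-74405860 (plus). Kdm3a lies at chr6:71588972-71632990 (minus), Kdm2a at chr19:4314419-4398285 (minus) and Kdm2b at chr5:122870665-122989823 (minus). Exons of Kdm2b share 627 bases with Rnf34 on the opposite strand, those of Kdm5a 251 bases with Ccdc77, and those of Kdm6b 286 bases with the antisense gene Kdm6bos, whose median count was 0. Whether the counting used strand is not given in the sources used here, so reads in those stretches cannot be assigned with certainty. Reads of Kdm6a may also match its Y-linked copy Uty. Every library held both the X-linked RNA Xist and Y-linked transcripts. In CPM of the raw library total, Xist lay at 123 to 326 and the Y-linked sum at 146 to 240. Whether a line mixes cells of both sexes was not tested.

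**Figure D1:**
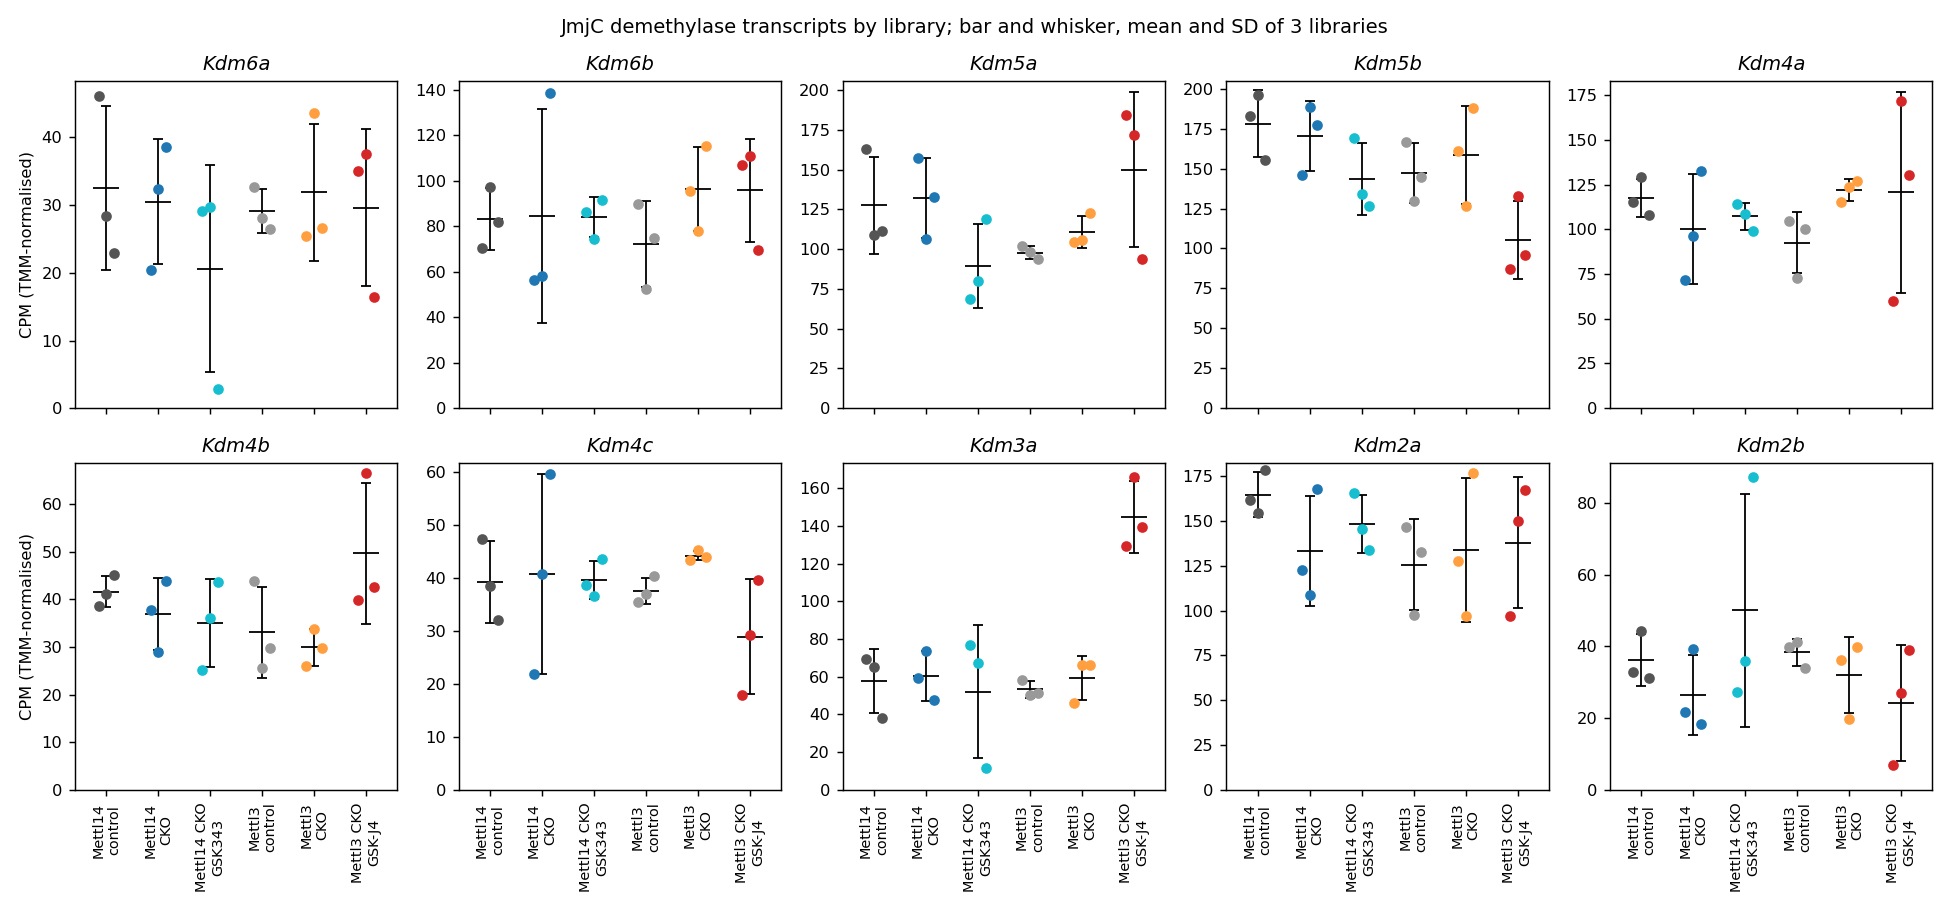
TMM-normalised CPM (vertical axes, each from 0) of the 10 demethylase transcripts in 6 groups (horizontal axis); each point is 1 library, and bar and whisker give the mean and SD of 3. The 3 GSK-J4 libraries of Kdm3a, at 129 to 166 CPM, lie above all 15 other libraries, while the groups of Kdm6a and Kdm6b overlap.

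Scaled to exon length, Kdm4a had the highest level of the 10 transcripts, a median of 19.3 CPM per kb of exon over 18 libraries. It ranked first in 17 of them. Kdm6b followed at 12.1, then Kdm2a at 10.1, Kdm5b at 9.11, Kdm3a at 7.99, Kdm4b at 7.79, Kdm5a at 7.62 and Kdm4c at 6.73 CPM per kb. Kdm6a at 3.44 and Kdm2b at 3.22 CPM per kb were the lowest. The step from Kdm4a to Kdm6b and that from Kdm4c to Kdm6a were kept in 17 of 18 libraries. The other neighbours changed places between libraries, from Kdm4b above Kdm5a in 8 of 18 to Kdm6b above Kdm2a in 14 of 18. Among 18909 protein-coding genes with a count in any library, the length-scaled medians stood between the percentile 58.1 of Kdm2b and the percentile 87.0 of Kdm4a. The length used joins all annotated exons of a gene, 5782 bases for Kdm4a and 16555 for Kdm5b, and can exceed that of the RNA present. Without scaling, the medians of Kdm5b (150.7 CPM) and Kdm2a (146.3 CPM) were above that of Kdm4a (111.3 CPM). The order and the percentiles therefore depend on these lengths.

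**Figure D2:**
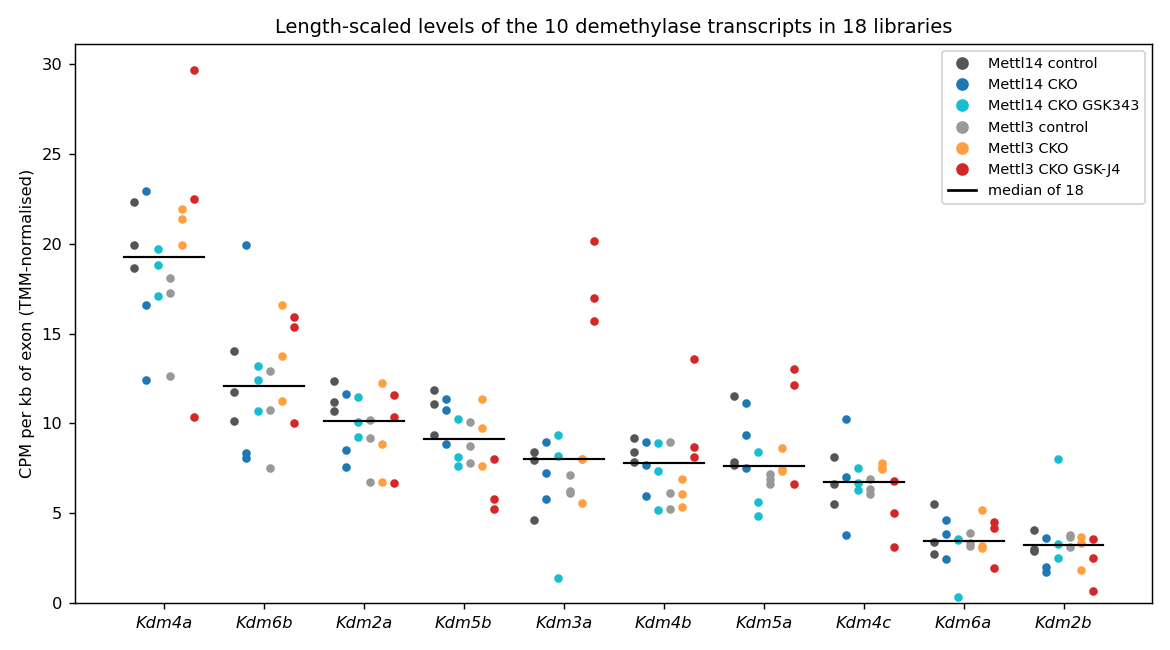
TMM-normalised CPM per kb of exon (vertical axis, from 0) of each transcript, ordered by its median over 18 libraries (black line); each point is 1 library, coloured by group. Kdm4a has the highest median, 19.3, and Kdm6a and Kdm2b the lowest, while the middle of the order overlaps.

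The H3K27 demethylases that GSK-J4 inhibits kept overlapping transcript levels in every group. Kdm6a, an X-linked gene whose protein works in the MLL3 and MLL4 methyltransferase complexes, lay in the Mettl14 control at 46.2, 28.4 and 22.9 CPM, in its CKO at 20.5, 32.4 and 38.7, and with GSK343 at 29.2, 29.7 and 2.91. In the Mettl3 control it lay at 32.7, 28.1 and 26.4 CPM, in the CKO at 25.5, 43.5 and 26.7, and with GSK-J4 at 35.0, 37.6 and 16.4. No group stands above or below another except for 1 low library with GSK343. That library, GSK343 replicate 3, had 2 counts of Kdm6a, for which an exact Poisson 95% interval is 0.352 to 10.5 CPM, below the 16.4 to 46.2 CPM of the other 17. The interval covers counting error only.

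The log2 fold change of Kdm6a was -0.10 ± 0.45 (SE) in the Mettl14 CKO, -0.37 ± 0.46 with GSK343, 0.13 ± 0.41 in the Mettl3 CKO and -0.05 ± 0.41 with GSK-J4. The test was edgeR's quasi-likelihood test over all genes with Benjamini-Hochberg adjustment, in which an adjusted p under 0.05 is a call, and the GSK-J4 value had adjusted p = 0.949. An interval of 2 SE on either side runs from -0.88 to 0.78 on the log2 scale, which leaves room for changes in both directions. Without GSK343 replicate 3, the GSK343 value became -0.03.

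Kdm6b, induced in many cells by inflammatory and developmental signals, lay in the Mettl14 control at 70.4, 97.4 and 81.8 CPM, in its CKO at 56.2, 58.2 and 139, and with GSK343 at 86.4, 74.5 and 91.6. In the Mettl3 control it lay at 89.8, 52.3 and 74.7 CPM, in the CKO at 95.6, 78.1 and 115, and with GSK-J4 at 107, 111 and 69.7. All 6 groups overlap, and the widest spread is within the Mettl14 CKO, whose shallow replicate 3 is the highest of all. The log2 fold change with GSK-J4 was 0.04 ± 0.28 (adjusted p = 0.943, 2 SE from -0.52 to 0.60), and with GSK343 0.02 ± 0.31. In the Mettl3 CKO against control it was 0.42 ± 0.28 (adjusted p = 1).

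Per kb of exon, Kdm6b exceeded Kdm6a in 18 of 18 libraries. The ratio was between 1.84 and 5.21 in the 17 libraries without GSK343 replicate 3, with a median of 3.56, and it was 38.0 in that library, where Kdm6a had 2 counts. The lowest ratio was in Mettl14 control replicate 1 and the highest of the 17 in Mettl3 CKO replicate 3, so that no group sets its range.

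Among the transcripts most like Kdm6b over the 18 libraries, by Pearson correlation of log2 CPM among 8998 protein-coding genes at 10 CPM or more, were Kmt2d (r = 0.89) and Mdn1 (0.84). Over the 15 libraries without GSK-J4, they were Kmt2d (0.94), Hspg2 (0.92) and Kmt2a (0.91). Without the 2 shallowest libraries, a setting chosen after seeing the data, those of Kmt2d were 0.85 over 16 libraries and 0.91 over 13. For Kdm6a the closest over 18 libraries were Ptar1 (0.95), Atp2c1 (0.94) and Cep76 (0.92), and over 15 they included Fubp1 and Zfp955a (each 0.96). These fell to 0.72, 0.67 and 0.40, and to 0.75 and 0.82, without the shallow libraries, so that they rest in part on those 2 libraries. The values describe the libraries, which share lines, treatments and depths.

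Kdm3a, an H3K9 demethylase, was the only member called in the main tests. In the Mettl3 line it lay in the control at 58.4, 50.4 and 51.2 CPM, in the CKO at 46.0, 66.0 and 66.0, and with GSK-J4 at 129, 166 and 140. Every GSK-J4 library lies above every other library of the study. The means were 59.4 ± 11.6 CPM in the CKO and 145 ± 19.0 CPM with GSK-J4 (SD, n = 3), a ratio of 2.44. The log2 fold change was 1.34 ± 0.23 against the CKO (edgeR adjusted p = 0.00323), and 1.49 ± 0.23 against the control (adjusted p = 0.00192), which uses the same treated libraries. Both stayed called in each of 13 alternatives, with adjusted p up to 0.0237 against the CKO and up to 0.0172 against the control. Bulk RNA cannot tell more RNA per cell from more cells that express the gene.

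In the Mettl14 line Kdm3a lay in the control at 69.4, 65.4 and 38.0 CPM, in the CKO at 59.6, 73.9 and 47.4, and with GSK343 at 76.9, 67.4 and 11.6. The groups overlap, and the lowest library is again GSK343 replicate 3, where 8 counts give an interval of 5.02 to 22.9 CPM against 38.0 to 166 CPM in the other 17. The log2 fold change with GSK343 was -0.13 ± 0.40 (adjusted p = 0.998), and 0.23 without that library. In the CKO against control it was 0.11 ± 0.39 in the Mettl14 line and 0.15 ± 0.23 in the Mettl3 line.

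The sequence just before the first RefSeq start of Kdm3a is shown because Kdm3a was the only member called. That before the RefSeq start of Kdm6a is shown because Kdm6a did not pass the test. RefSeq promoters (GRCm38.p6) matched 6 of the 10 genes, Kdm6a, Kdm5b, Kdm4a, Kdm4c, Kdm3a and Kdm2b, with 12 starts; Kdm6b, Kdm5a, Kdm4b and Kdm2a were not matched. Capitals mark ACGTG or GCGTG on either strand, the core letters of the HIF element, counted on both strands where they overlap as in CACGTG. Bases are numbered back from the RefSeq start. For Kdm3a the stretch from -250 to -74 (chr6:71632991-71633167, minus strand) and a 30-base window from -40 to -11 (chr6:71632928-71632957) are given, and for Kdm6a the stretch from -250 to -1 (chrX:18162325-18162574, plus strand).
Kdm3a, -250 to -74: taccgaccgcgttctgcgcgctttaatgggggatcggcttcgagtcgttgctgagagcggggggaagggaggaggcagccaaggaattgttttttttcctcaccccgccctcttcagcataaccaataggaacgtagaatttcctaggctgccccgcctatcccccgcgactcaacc
Kdm3a, -40 to -11: tccgggaggctgtGCGTGtcttgtgagaga
Kdm6a, -250 to -1: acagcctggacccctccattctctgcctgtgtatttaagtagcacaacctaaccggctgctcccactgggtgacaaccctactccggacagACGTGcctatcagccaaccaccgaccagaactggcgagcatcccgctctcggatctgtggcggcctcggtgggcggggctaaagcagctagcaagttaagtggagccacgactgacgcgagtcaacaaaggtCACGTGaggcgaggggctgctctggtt

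The window before the first Kdm3a start held 1 core, beginning at -27, and the windows before its other 2 starts held none. By the GENCODE start, at chr6:71632990, that core lies downstream, inside the annotated gene. The Kdm6a window held 3 matches, beginning at -159, -27 and -26, the last pair being both strands of CACGTG. Of the 12 windows of 250 bases of these genes, 8 held a core, among them those of Kdm5b and Kdm2b, and the Kdm4a window held none. In all RefSeq promoters of this length, 12679 of 32851 (38.6%) held one, as did 44.0% of those of protein-coding genes and 17 of 20 (85.0%) of the HIF target list. A pair of the Kdm2b windows overlap and share their sites, so the 8 are not all distinct. The letters are therefore present before a RefSeq start of the member that was called and of members that were not.

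With GSK-J4, 2186 of 16782 genes tested were called against the CKO (664 higher and 1522 lower), or 13.0%. Of the 10 demethylases 1 was called, a share near that of all genes. Against the control 11.4% of genes were called and again 1 member. In groups of 3 that do not overlap, 33.3% of genes separated from the CKO and 3 of 10 members did, Kdm3a and Kdm4b above and Kdm4c below. The corresponding shares against the control were 33.8% of genes and 1 of 10 members. The median log2 fold change of the 10 was 0.04, beside -0.06 for all genes tested.

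**Figure D3:**
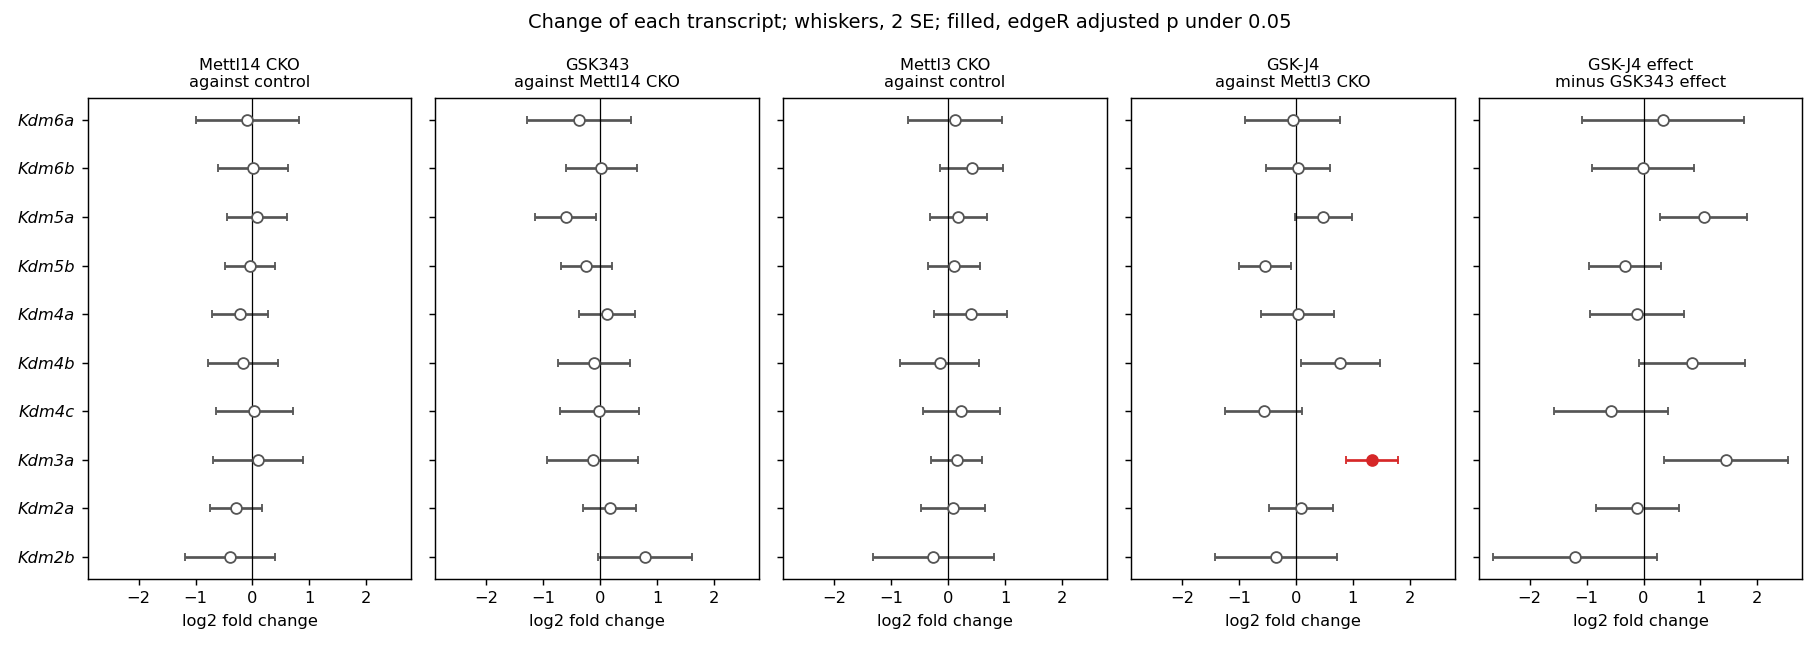
Log2 fold change (horizontal axes) of each transcript in 5 comparisons, with whiskers of 2 SE; filled points have edgeR adjusted p under 0.05. Kdm3a with GSK-J4, at 1.34, is the only filled point, and the whiskers of Kdm6a and Kdm6b span 0 in each panel.

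KDM5A and KDM5B remove methyl groups from H3K4. Kdm5a lay in the Mettl3 CKO at 104, 106 and 123 CPM and with GSK-J4 at 184, 172 and 94.1, so that replicate 3 lies below the CKO and the other 2 above it. Its log2 fold change was 0.49 ± 0.25 (adjusted p = 0.229), and 0.66 ± 0.25 against the control (adjusted p = 0.115). The latter was called without GSK-J4 replicate 3, at 0.78 (adjusted p = 0.0192, edgeR), and by DESeq2 (0.76, adjusted p = 0.0264). Without GSK-J4 replicate 1 it was 0.36 (adjusted p = 0.352, edgeR), and the value against the CKO was 0.18 (adjusted p = 0.646). With GSK343 it lay at 68.8, 79.8 and 119 CPM, against 157, 107 and 133 in the Mettl14 CKO, a log2 fold change of -0.61 ± 0.27 (adjusted p = 0.838).

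Kdm5b lay in the Mettl3 CKO at 161, 127 and 188 CPM and with GSK-J4 at 87.0, 133 and 96.2. The groups overlap through GSK-J4 replicate 2. Its log2 fold change was -0.54 ± 0.23 (adjusted p = 0.153), and without that library it was -0.76 and called (adjusted p = 0.0484, edgeR). Leaving out any other library it ran from -0.80 to -0.40, and without CKO replicate 3 the adjusted p was 0.3801. Against the control it was -0.43 ± 0.23, and with GSK343 -0.24 ± 0.22.

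The KDM4 genes, which act on H3K9 and H3K36, were not called in any comparison. Kdm4b lay in the Mettl3 CKO at 26.0, 33.8 and 29.8 CPM and with GSK-J4 at 39.8, 66.5 and 42.5. These groups do not overlap, and the log2 fold change was 0.78 ± 0.35 (adjusted p = 0.166). Kdm4c lay at 43.5, 45.2 and 44.0 CPM in the CKO and at 17.98, 29.2 and 39.6 with GSK-J4, also without overlap, at -0.57 ± 0.34 (adjusted p = 0.299). Kdm4a, at 115, 124 and 127 CPM in the CKO, spread from 60.0 to 172 CPM with GSK-J4, more widely than in any other group (0.03 ± 0.32).

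KDM2A and KDM2B bind unmethylated CpG islands through a zinc finger, and KDM2B brings a variant Polycomb complex there. Kdm2a lay between 96.9 and 178 CPM in the 18 libraries, and its log2 fold change with GSK-J4 was 0.09 ± 0.28. Kdm2b lay in the Mettl3 CKO at 36.1, 19.9 and 39.9 CPM and with GSK-J4 at 6.95, 27.1 and 39.0 (-0.35 ± 0.53). The value was -0.96 without GSK-J4 replicate 3 and -0.04 without replicate 1. With GSK343 it lay at 27.2, 35.9 and 87.3 CPM, against 21.6, 39.2 and 18.4 in the Mettl14 CKO. The highest of these is GSK343 replicate 3, whose 60 counts give an interval of 66.6 to 112 CPM, above the 6.95 to 44.4 CPM of the other 17. The log2 fold change was 0.79 ± 0.41 (adjusted p = 0.904), and 0.21 without that library.

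Neither CKO called any of the 10. In the Mettl14 CKO against control edgeR called 0 of 13882 genes (0%), and DESeq2 also called none; 208 genes had an unadjusted p under 0.05, none of them a member. In the Mettl3 CKO it called 0 of 16782 (0%), DESeq2 5 and limma voom 6; 315 had an unadjusted p under 0.05 and no member was among them. The members' values ran from -0.40 (Kdm2b) to 0.11 (Kdm3a) in the first and from -0.26 (Kdm2b) to 0.42 (Kdm6b) in the second. No member separated its groups in the Mettl14 line, where 7.66% of genes did, and 3 did in the Mettl3 line, where 13.1% of genes did. These 3 were Kdm5a, Kdm4a and Kdm4c, each higher in the CKO, and Kdm4a had the largest difference, 122 ± 5.96 CPM against 92.5 ± 17.1 CPM.

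GSK343 called 4 of 13882 genes (0.0288%) against the Mettl14 CKO and 23 (0.166%) against the control, and no member in either. No member separated its groups, beside 9.80% and 11.5% of genes. Against the CKO the log2 fold change was 0.12 ± 0.25 for Kdm4a, -0.11 ± 0.32 for Kdm4b, -0.01 ± 0.35 for Kdm4c and 0.17 ± 0.23 for Kdm2a. Against the control the 10 ran from -0.53 (Kdm5a) to 0.39 (Kdm2b), and the latter was -0.19 without GSK343 replicate 3. Kdm5a and Kdm2b, given above, had the largest values in either direction.

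The controls of the 2 lines differed in 149 of 16326 genes (0.913%), none of them a member. Kdm5a, Kdm4a and Kdm2a lay without overlap below the Mettl14 control in the Mettl3 control, beside 18.1% of all genes that separated. Kdm2a had the largest difference, at 126 ± 25.5 CPM against 165 ± 12.3 CPM (log2 fold change -0.39 ± 0.25, adjusted p = 1). The log2 values of the other 9 ran from -0.38 (Kdm5a) to 0.08 (Kdm2b).

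The difference of the inhibitor effects, GSK-J4 minus GSK343, was called by edgeR for 10.2% of genes and for 0 of the 10. An unadjusted edgeR p under 0.05 was found for 2 of the 10 and for 3943 of all 16326 genes. For Kdm3a the difference was 1.45 ± 0.54 (adjusted p = 0.0987, edgeR). Without GSK343 replicate 3 it was 1.07, and DESeq2 called it (1.60, adjusted p = 0.0261). For Kdm5a it was 1.05 ± 0.38 (adjusted p = 0.0848), called by DESeq2 (adjusted p = 0.0274), without GSK343 replicate 3 (1.29, adjusted p = 0.0398) and without GSK-J4 replicate 3 (1.31, adjusted p = 0.0158). For Kdm6a and Kdm6b it was 0.35 ± 0.71 and -0.01 ± 0.45. For Kdm2b it was -1.20 ± 0.72 (adjusted p = 0.324), and -0.60 without GSK343 replicate 3. The other 5 ran from -0.57 (Kdm4c) to 0.85 (Kdm4b). RLE size factors moved the median of all genes by 0.137 in this comparison. Line, deleted gene and compound differ together here.

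Of 14 other JmjC genes tested, 1 was called higher with GSK-J4 against the CKO, beside 664 of all 16782 genes. Jmjd6, whose protein hydroxylates lysines of splicing factors, lay at 54.7, 36.9 and 39.3 CPM in the CKO and at 103, 78.8 and 88.9 with GSK-J4. Its groups did not overlap, as for 33.3% of all genes tested. Its log2 fold change was 1.09 ± 0.26 (adjusted p = 0.0204), and it was called in 8 of 13 alternatives. Against the control the called member of that list was Jmjd1c, a relative of Kdm3a, at 0.94 ± 0.23 (adjusted p = 0.0215, edgeR), called in 9 of 13 alternatives with adjusted p up to 0.149. Jmjd6 had 0.57 ± 0.26 there (adjusted p = 0.182). The list's median against the CKO was -0.37. Uty, the Y-linked copy of Kdm6a, lay at 16.8, 24.6 and 22.1 CPM in the CKO and at 11.99, 16.2 and 0.675 with GSK-J4 (-1.08 ± 0.81, adjusted p = 0.412), the lowest library being the one with the lowest Kdm6a of that group.

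The methyltransferase complex that opposes KDM6A and KDM6B, Polycomb repressive complex 2, had 2 of 6 genes called higher with GSK-J4 against the CKO. Over all 16782 genes tested, 664 were called higher. Suz12, a core subunit, lay at 33.7, 37.4 and 49.5 CPM in the CKO and at 72.2, 112 and 142 with GSK-J4 (1.48 ± 0.30, adjusted p = 0.00784). Eed, which reads the mark, lay at 29.8, 25.02 and 34.0 CPM and at 52.3, 71.8 and 78.6 (1.24 ± 0.29, adjusted p = 0.0169). Both separate fully. Against the control only Suz12 was called of the 6 (1.68 ± 0.30, adjusted p = 0.00449, edgeR), and Eed had 0.89 ± 0.29 (adjusted p = 0.0682). Ezh2, the catalytic subunit, had 11.5, 21.03 and 13.2 CPM in the CKO and 35.97, 49.2 and 10.8 with GSK-J4, and did not pass the test (1.12 ± 0.57, adjusted p = 0.222). The median of the 6 was 0.72, beside -0.06 for all genes. Suz12 was called in 11 of 13 alternatives and Eed in 8.

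Complexes and enzymes near the other members gave few calls against the CKO. None of 8 genes of the complex that holds KDM6A was called (edgeR, 2 had an unadjusted p under 0.05), none of 9 of the Polycomb complex of KDM2B (0), none of 5 of the flavin-dependent demethylases and partners (2), none of 6 H3K4 methyltransferases (1) and none of 5 H3K9 methyltransferases (1). Over all 16782 genes tested, 4789 had an unadjusted edgeR p under 0.05. Against the control, Kmt2c (1.00 ± 0.22, adjusted p = 0.0130) and Rbbp5 (1.13 ± 0.27, adjusted p = 0.0219) of the KDM6A complex were called higher by edgeR. In that comparison 531 of all 16782 genes were called higher. Kmt2c was called in 11 of 13 alternatives and Rbbp5 in 8, with log2 values down to 0.70. Among 5 H3K36 methyltransferases 1 rose and 1 fell against the CKO, beside 13.0% of all genes called in either direction. Nsd1 lay at 168, 171 and 252 CPM in the CKO and at 45.6, 62.8 and 38.6 with GSK-J4 (-1.96 ± 0.25, adjusted p = 0.000516), and it was called in all 13 alternatives. Nsd2 rose by 1.16 ± 0.34 (adjusted p = 0.0453), and was called in 5 of 13.

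Of 13 HIF target genes tested, 5 were called higher with GSK-J4 against the CKO and none lower. Over all 16782 genes tested, 664 were called higher and 1522 lower. This list, like the others, was chosen with earlier results of these data known. Of the 13, 12 had a positive value and the median was 1.00. Bnip3, a mitophagy receptor, lay at 33.4, 50.8 and 56.2 CPM in the CKO and at 161, 114 and 221 with GSK-J4 (1.87 ± 0.32, adjusted p = 0.00312). The glucose transporter gene Slc2a1 rose by 1.13 ± 0.17 (adjusted p = 0.00142) and the glycolytic gene Eno1 by 1.00 ± 0.16 (adjusted p = 0.00224). All 3 were called in each of 13 alternatives, in which the number called higher in the list ranged from 3 to 8. Other listed genes did not pass the test, such as the angiogenic factor gene Vegfa (0.35 ± 0.24), the glycolytic gene Pgk1 (0.53 ± 0.18) and P4ha1 (-0.14 ± 0.17); these 3 were named after their values were seen. Against the control 3 of 13 were called higher (1 to 5 over 13 alternatives), beside 531 of all 16782 genes, with a median of 0.68. There Bnip3 was called in all 13 alternatives, Eno1 (0.68) in 8 and Slc2a1 (0.68) in 5, and calls of both were lost without any 1 of the control libraries. In the Mettl3 CKO against control all 13 were negative and none was called by edgeR. Of the 13, 1 had an unadjusted edgeR p under 0.05, beside 315 of all 16782 genes. Against the Mettl3 CKO, the GSK-J4 libraries had lower depth, mitochondrial share, and mesenchyme and neural marker sums. Their sums of pluripotent, endothelial, epithelial and cardiomyocyte markers were higher, with only 1 marker of each list seen in all 3 libraries. These features moved with the HIF list, with Kdm3a and with the Polycomb genes, and their part was not tested.

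Other enzymes that use 2-oxoglutarate had 3 of 9 genes called higher with GSK-J4 against the CKO and none lower. Over all 16782 genes tested, 664 were called higher and 1522 lower. Egln3, a HIF prolyl hydroxylase that is itself a HIF target and also stands in the HIF list, lay at 2.68, 0.912 and 3.06 CPM in the CKO and at 12.5, 23.1 and 30.4 with GSK-J4 (3.35 ± 0.87, adjusted p = 0.0274). Egln1, the main HIF prolyl hydroxylase, rose by 0.85 ± 0.22 (adjusted p = 0.0287). Alkbh5, which removes N6-methyladenosine from RNA, lay at 144, 139 and 150 CPM in the CKO and at 196, 218 and 459 with GSK-J4 (1.06 ± 0.31, adjusted p = 0.0446), and it was not called without GSK-J4 replicate 3, where it was 0.44, or without any 1 of the CKO libraries. Against the control 2 of the 9 were called higher, Egln1 (0.85 ± 0.22) and Alkbh5 (1.16 ± 0.31), beside 531 of all 16782 genes. Egln3 was not (2.25 ± 0.83, adjusted p = 0.104, edgeR), and in the CKO against control it had -1.10 ± 0.80. Against the CKO Egln3 was called in 9 of 13 alternatives, Alkbh5 in 7 and Egln1 in 4.

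**Figure D4:**
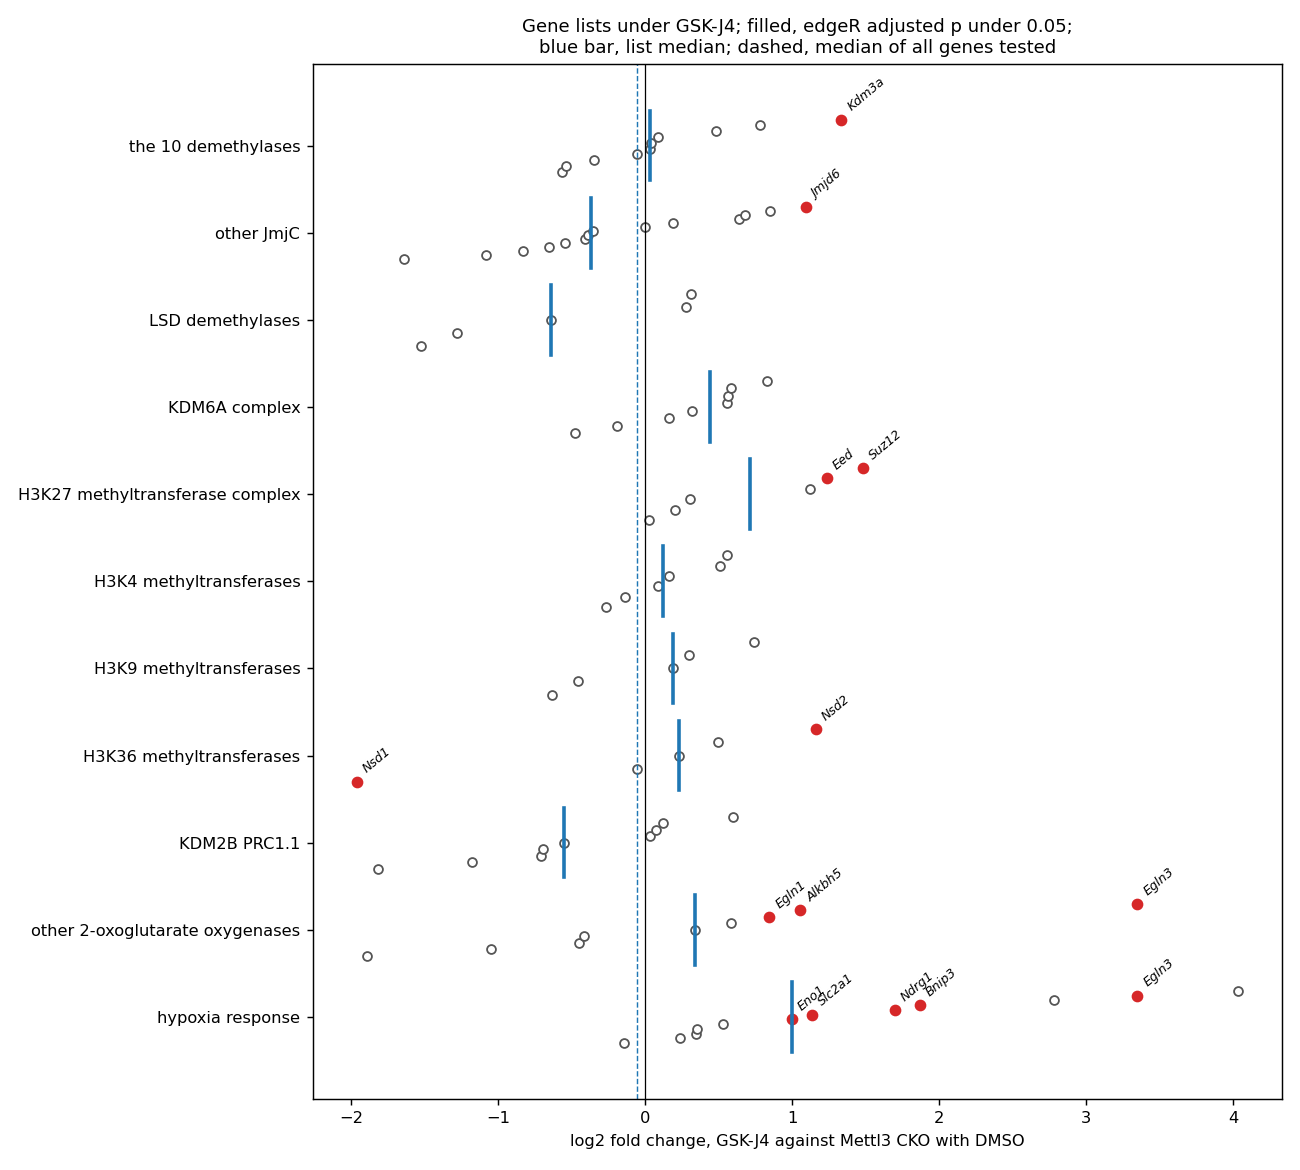
Log2 fold change with GSK-J4 against the Mettl3 CKO with DMSO (horizontal axis) of each tested gene in 11 lists (rows); filled points have edgeR adjusted p under 0.05, blue bars are list medians and the dashed line is the median of all genes tested, -0.06. Kdm3a is the only filled one of the 10 demethylases, and 5 genes of the HIF list are filled, all on the positive side.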

How the data were processed

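All 18 libraries were made from poly(A)-selected RNA with a SMARTer stranded kit, as the labels' protocols state. The authors' deposited files hold whole-number counts, 1 file per library with 54446 gene identifiers and no row without a gene. Per the submitters' processing notes, the tools were CASAVA, Trimmomatic 0.38, HISAT2 2.1.0 and HTSeq, with the build mm10. The annotation release and strand setting were not given in the sources used here. Symbols and coordinates come from GENCODE M21, which holds 54409 of the identifiers (37 had no match).

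The 9 libraries of each line were fitted with edgeR 4.0.16 (R 4.3.3; filterByExpr, TMM, quasi-likelihood test, Benjamini-Hochberg). All 18 were fitted for the control comparison and the difference of the inhibitor effects. CPM use TMM factors over all 18 and are given with the SD of 3 libraries; log2 fold changes carry an SE, the size of the change divided by the square root of its F statistic. A floor of 3 counts is 0.0922 to 4.16 CPM of the raw library total, per library. The biological coefficient of variation was 0.394 (Mettl14 line), 0.843 (Mettl3 line) and 0.664 (all). Alternatives were DESeq2 1.42.0, limma 3.58.1 (voom with quality weights), RLE factors, no filter, a replicate block, other sets of libraries and leaving out each library. Code was tested on simulated data. Figures used Python 3.11.15 and matplotlib 3.10.9.

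The members and lists were chosen with earlier results of these data known. All 10 members are covered in each comparison, by value or range. Of each other list only counts, the median and up to 3 genes with the smallest p are named, and for Kdm6a and Kdm6b the 3 genes with the most alike pattern, some of which are not reported here; Uty, Mettl14, Mettl3 and genes said to be so were named outside this rule. The same alternatives for genes of the other lists were added after seeing the data.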

Additional observations from a re-analysis of the deposited data

How the results depend on the processing

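Kdm3a kept its call with GSK-J4 in each alternative, with log2 values of 1.17 to 1.43 against the CKO and 1.37 to 1.59 against the control. Of 1110 values of the 10 demethylases under an alternative, 993 kept their sign and their side of the threshold, 110 changed sign without a call before or after, and 7 gained a call (Kdm5a in 5, Kdm3a and Kdm5b in 1 each); none lost a call. Values whose sign changed were at most 0.39 in size, so no direction is given to them. Counts of all genes called moved more, and the cause was not tested. DESeq2 called 56 genes for GSK343 against the CKO, 71 against the control, 5 for the Mettl3 CKO, 3717 for GSK-J4 against the CKO, 3520 against the control and 286 between controls. RLE factors gave 1 for GSK343 against the CKO. Without the filter the counts were 15 for the Mettl14 CKO, 50 and 63 for GSK343 against the CKO and the control, 6 for the Mettl3 CKO and 280 between controls. Voom gave 19 and 65 for GSK343 against the CKO and the control, 6 for the Mettl3 CKO, 859 between controls and 856 for the difference of the inhibitor effects. Without the 2 shallow libraries GSK343 gave 2 and 37. Fits of only the 2 groups compared, with fewer libraries, gave 35 for GSK343 against the control, 2 for the Mettl3 CKO, 977 and 887 for GSK-J4 against the CKO and the control, and 583 between controls. All 18 libraries in the fit gave 0 and 2 for GSK343 and 3373 and 3155 for GSK-J4. Leaving out 1 library gave 0 to 7 calls for the Mettl14 CKO (7 without CKO replicate 1), 0 to 14 for GSK343 against the CKO and 4 to 28 against the control. It gave 1032 to 3061 for GSK-J4 against the CKO and 888 to 2798 against the control; the lowest counts came without any 1 of the 3 libraries of the CKO (1032, 1113 and 1060) or of the control (1076, 980 and 888). It gave 89 to 112 between controls and 1210 to 2541 for the difference, the highest without GSK-J4 replicate 2. The replicate number pairs nothing in the labels, and the deviations of same-numbered libraries correlated between -0.124 and 0.101; with the replicate block GSK343 against the CKO gave 1 call, GSK-J4 1407 against the CKO and 1256 against the control, and no call of the 10 demethylases changed. The lowest count of a member was 2, for Kdm6a in GSK343 replicate 3. In that library Kdm6a and Kdm3a lay below the other 17 and Kdm2b above them. The Poisson intervals of these 3 genes do not reach the other libraries, and the cause was not tested.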
